A study of Mus musculus with 4 samples.

Results

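Ets2 and the long non-coding RNA genes 2810404F17Rik and 1600002D24Rik lie within 600 kb of mouse chromosome 16, and one intron of 1600002D24Rik held a region whose accessibility was higher with activin. The window examined, of 600 kb on GRCm38, has Ets2 near its start and Lca5l at its end. It was taken by position, together with any peak whose nearest annotated start site belonged to one of the 3 genes. That gave 249 called peaks of 417506 in the series, which merged into 140 regions of 255101. Of the 249 peaks, 103 were assigned to the 3 genes: 46 to Ets2, 34 to 2810404F17Rik and 23 to 1600002D24Rik, and 0 of these lay outside the window. The intronic region itself was chosen by its read density and peak strength in these same libraries, which differed between the treatments, so its change is described and not tested.

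The assay was ATAC-seq, where a transposase cuts and tags open DNA. The cells were LβT2 (LbT2b in the sample titles), an established mouse line derived from pituitary gonadotropes. One line was used throughout. The vehicle group (2 libraries) and the activin group (2 libraries, activin A at 1 nM) were both held overnight without serum and then treated for 6 h. The study asked about enhancers of Fshb, which encodes the β subunit of follicle-stimulating hormone.

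Ets2 (ENSMUSG00000022895) encodes a transcription factor of the ETS family, whose members bind DNA with a GGAA core and many of which are phosphorylated by signalling kinases. Activin is a ligand of the TGFβ family that signals through SMAD2 and SMAD3, and in gonadotropes it stimulates Fshb transcription. 2810404F17Rik (ENSMUSG00000085329) and 1600002D24Rik (ENSMUSG00000086899) are annotated as long intergenic non-coding RNAs, and the role of neither is described here.

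The start sites of the members differed in base composition, and the 250 bases before each start held by RefSeq (GRCm38.p6) are shown to make that visible. CpG dinucleotides are in capitals. Each is written 5′ to 3′ on the strand of its gene. Ets2 was taken from chr16:95702157-95702406 on the plus strand. The 2 start sites of 1600002D24Rik were taken from chr16:95898714-95898963 and chr16:95929078-95929327 on the minus strand. 2810404F17Rik was not matched in the promoter table and is named only.
Ets2: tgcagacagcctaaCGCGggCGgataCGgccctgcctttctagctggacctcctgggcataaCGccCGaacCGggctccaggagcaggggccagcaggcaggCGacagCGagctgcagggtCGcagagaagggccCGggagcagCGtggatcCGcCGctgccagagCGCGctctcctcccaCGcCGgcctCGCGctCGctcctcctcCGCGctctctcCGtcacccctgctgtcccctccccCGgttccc
1600002D24Rik, start within the gene: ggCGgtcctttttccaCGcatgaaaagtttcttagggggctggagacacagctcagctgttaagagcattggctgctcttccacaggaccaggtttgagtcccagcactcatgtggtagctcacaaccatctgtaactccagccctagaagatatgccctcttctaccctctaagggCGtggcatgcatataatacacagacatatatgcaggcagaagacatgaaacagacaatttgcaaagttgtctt
1600002D24Rik, outer start: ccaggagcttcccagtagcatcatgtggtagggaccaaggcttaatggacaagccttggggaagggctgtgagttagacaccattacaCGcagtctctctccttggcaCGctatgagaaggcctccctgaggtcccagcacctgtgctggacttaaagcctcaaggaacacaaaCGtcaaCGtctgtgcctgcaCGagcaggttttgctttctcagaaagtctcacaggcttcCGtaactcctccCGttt

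The Ets2 sequence held 25 CpG, more than 89.3% of the 32851 RefSeq promoters measured in the same way, whose median was 6. The sequences of 1600002D24Rik held 3 and 7. The Ets2 start was covered by a peak in all 4 libraries and both 1600002D24Rik starts by a peak in none.

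The same split ran through the 14 RefSeq start sites of 12 genes in the window, as the plot of CpG against peak strength shows. The 6 with a peak in all 4 libraries (Ets2, Psmg1, Brwd1, Hmgn1, Get1 and Lca5l) held 17 to 42 CpG. The other 8 held 1 to 7, and of these only a start of Gm41508 was touched by a peak, in 1 library. Over all 32851 promoters, the 12082 (36.8%) that overlapped a region present in all 4 libraries had a median of 18 CpG (quartiles 12 and 25), and the other 20769 had a median of 3 (quartiles 1 and 6). The split in the window ran the same way as that over all promoters.

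**Figure D1:**
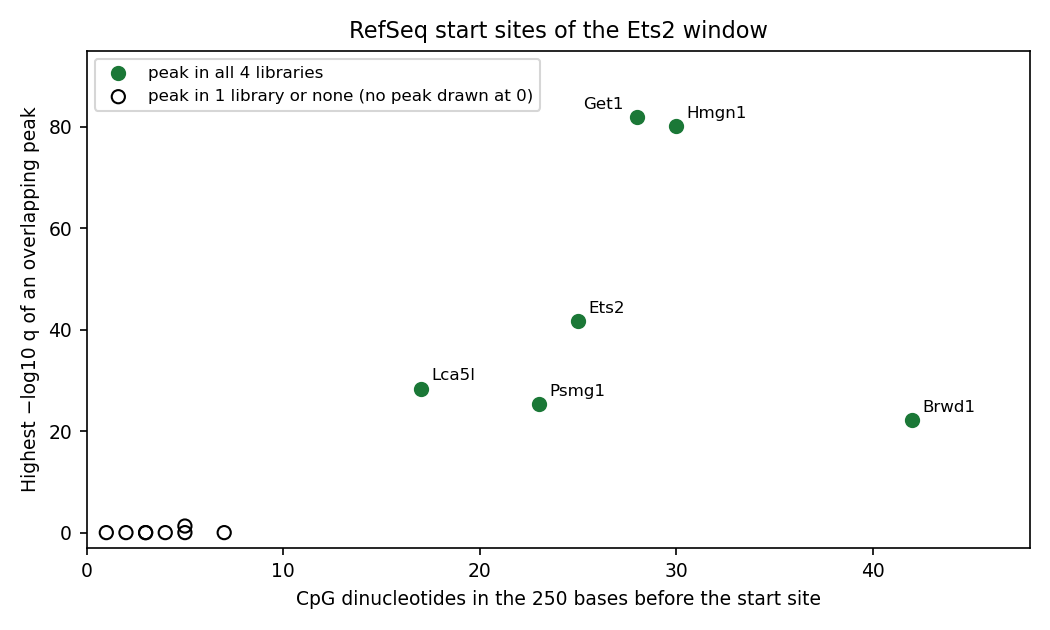
CpG dinucleotides in the 250 bases before each of 14 RefSeq start sites of the window (x axis) against the highest −log10 q of a peak overlapping it in any library (y axis, 0 where no peak was called). The 6 start sites with a peak in all 4 libraries (filled) hold 17 to 42 CpG and the 8 others (open) hold 1 to 7.

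Short motifs were searched on both strands of these 250 bases: the SMAD palindrome GTCTAGAC, the SMAD box CAGAC, the AP-1 site TGANTCA, the ETS site GGAAGT and the forkhead site TGTTTAC. The palindrome holds no full SMAD box, and matches of different motifs may overlap at their ends. The Ets2 sequence held 1 CAGAC, starting at base 3, and none of the other 4 motifs. The inner 1600002D24Rik start held 2 CAGAC and the outer start 1. CAGAC occurs in 42.2% of all promoters of this length, GGAAGT in 19.7%, TGANTCA in 6.75%, TGTTTAC in 3.17% and GTCTAGAC in 0.167%. A match is a description of the letters and not a bound site.

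The libraries held between 172146474 and 224226184 high-quality autosomal reads each, and enrichment of reads at start sites was 2.72 and 2.48 under vehicle but 3.12 and 3.04 under activin, so the groups did not overlap in it. Vehicle replicate 2 stood apart: it had the lowest enrichment and 178358 called peaks, against 70692 to 85112 in the other libraries. Of 11 gonadotrope marker genes, 8 had a promoter-annotated peak in all 4 libraries (Lhb, Cga, Gnrhr, Pitx1, Foxl2, Egr1, Gata2 and Isl1). The number was 0 of 6 for other pituitary endocrine cells, 0 of 4 for fibroblasts, 0 of 3 for blood cells and 0 of 3 for endothelial cells, against 18.8% of all 35667 genes named in the lists. Fshb itself had a promoter peak in 0 libraries. Among the endothelial genes, Cdh5 and Kdr were marked in all 4 libraries by a peak with its centre at most 1 kb from the start.

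Within the window, vehicle replicate 1 had 57 peaks, vehicle replicate 2 had 104, activin replicate 1 had 51 and activin replicate 2 had 37. Both vehicle libraries were above both activin libraries, with a difference in means of -36.5 peaks (activin minus vehicle). An exact permutation test of these counts, 2-sided, gave p = 0.333, the smallest p that 2 libraries against 2 allow. The lists differed in length, as given above, and vehicle replicate 2 had the longest. As a share of each library's own list, the window's peaks overlapped between the groups, with vehicle replicate 2 below activin replicate 1. Among strong peaks the order of the counts was turned. With −log10 q of at least 5, where q is the false discovery rate of the authors' peak caller and a larger value means a clearer peak, the window held 9 and 10 peaks under vehicle but 12 and 12 under activin. The genome as a whole ran the same way. Of all regions, 2536 (0.994%) were this strong in both activin libraries and no vehicle library, against 81 (0.0318%) the other way. The share of weak peaks (−log10 q under 2) was 64.9% and 71.2% under vehicle and 58.8% and 56.8% in the activin libraries. Cut to the same length of 70692 strongest peaks per list, the window held 48, 52, 43 and 37. Peaks were called on each library alone, so depth and background can also set these numbers, and their part in the difference was not tested.

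Of the 140 regions, 16 (11.4%) had a peak in all 4 libraries, close to the 11.7% of all regions of the genome. A further 15 were found in 3 libraries, 27 in 2 and 82 (58.6%, against 67.4% of all regions) in 1. Of these 82, vehicle replicate 2 alone gave 52. Strong peaks in all 4 libraries marked 9 regions (6.43%, against 4.07%).

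**Figure D2:**
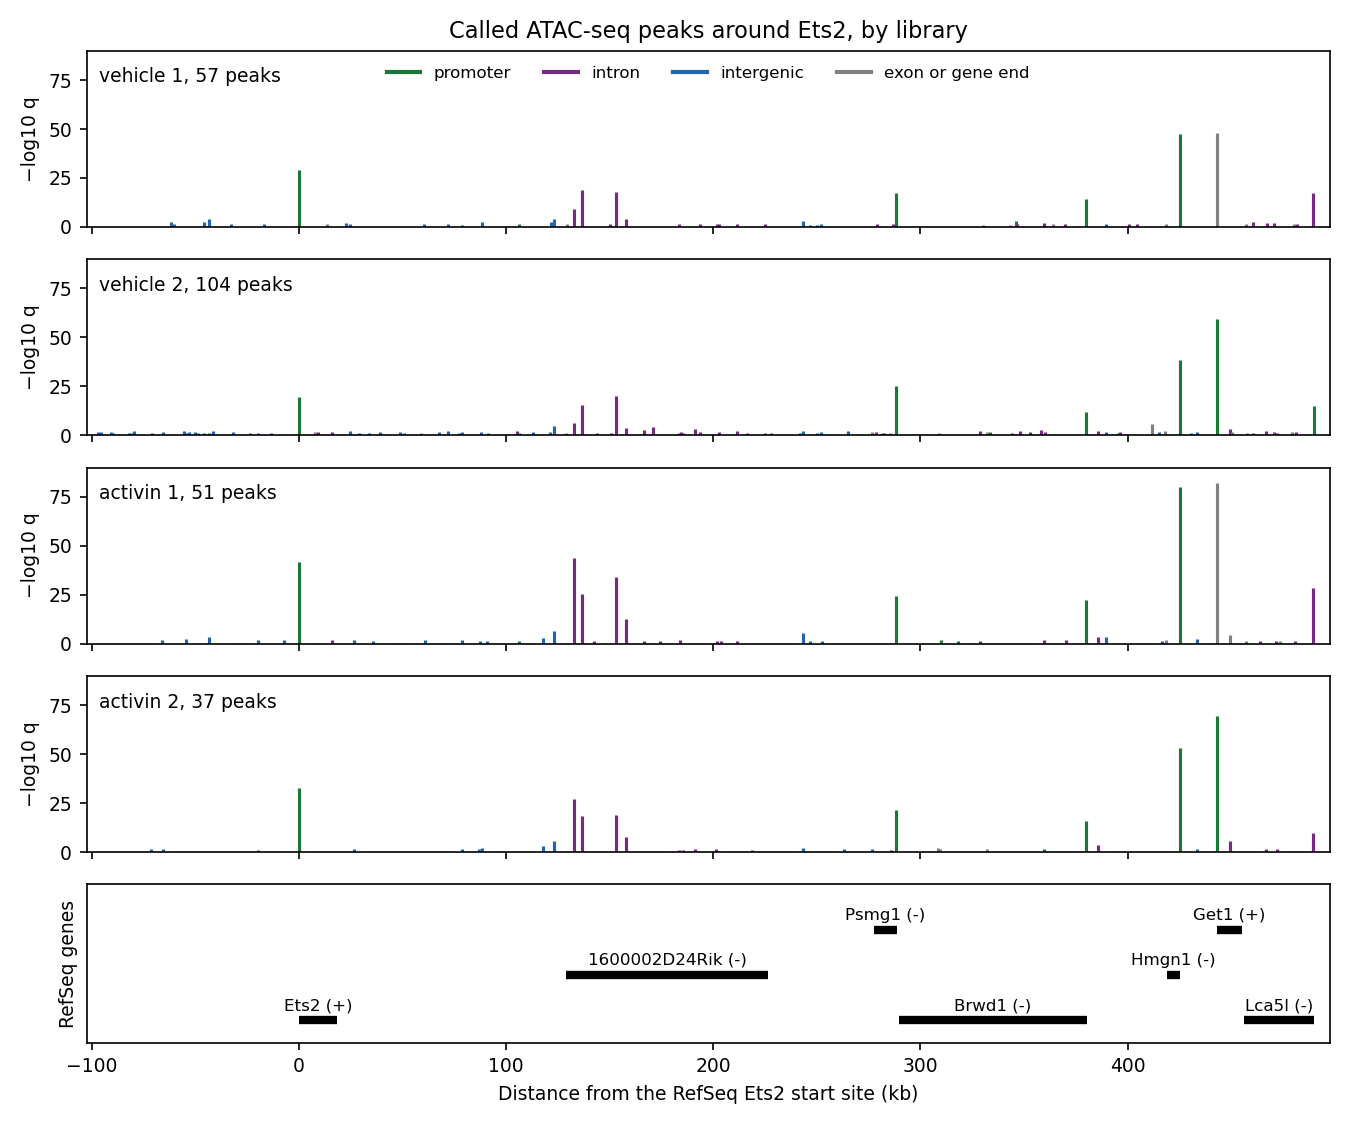
Called peaks across the window in each library, with distance from the RefSeq Ets2 start site in kb (x axis) and −log10 q (y axis), coloured by the class in that library's annotation, and RefSeq genes with their strand in the lowest panel. Tall peaks stand at the Ets2 start, at a group of introns of 1600002D24Rik between 133 and 158 kb, and at the starts of Psmg1, Brwd1, Hmgn1 and Get1, with Lca5l at the right edge. The peak at the Get1 start (Wrb in the authors' annotation) is grey in vehicle 1 and activin 1, where it was annotated as the end of Gm15317.

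The promoter of Ets2 was open with and without activin. Its region, chr16:95701771-95703099, covers the RefSeq start at 95702407. The −log10 q was 29.0 and 19.7 under vehicle and 41.6 and 33.0 in the activin libraries. The fold enrichment over the caller's background was 4.72, 3.65, 4.74 and 4.85 in the same order. Density, meaning high-quality reads per kb of peak and per 1000000 high-quality reads of that library, was 5.31 and 4.22 under vehicle and 5.70 and 5.55 under activin (means 4.76 ± 0.776 and 5.62 ± 0.105, SD, n = 2).

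On these uncentred scales each activin value at the Ets2 promoter was above each vehicle value, and so it was at most shared regions. Among the 13871 shared regions (exactly 1 peak in every library, with a common part of at least 50% of the merged span), density was higher in both activin libraries in 62.4% (lower in 3.56%), fold enrichment in 61% (lower in 3.23%) and −log10 q in 71.7%. Densities were centred on each library's median over the shared regions before testing. Centring takes out any shift common to all regions, and the source of that shift was not tested. Scaled instead to all high-quality reads, limma called 605 of the 13871 (553 higher, 52 lower), against 0 after centring. After centring, limma gave a change of -0.025 ± 0.10 (log2, SE) for the Ets2 promoter, with an adjusted p of 0.953. The direction turned under other scalings, to 0.25 when the reads were scaled to all high-quality reads, a scaling that moves the median of all shared regions by 0.27, and to 0.055 without division by peak length.

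The authors' annotation measured the Ets2 promoter peak against another start, at 95706339, inside the gene. Inside Ets2 or within 5 kb of it, 5 other regions were called. These were chr16:95710316-95710533 and chr16:95711728-95711908 in vehicle replicate 2 alone, chr16:95716126-95716287 and chr16:95724934-95725094 in vehicle replicate 1 alone, and chr16:95717785-95718767 in vehicle replicate 2 and activin replicate 1. The highest −log10 q among them was 1.90. No intronic peak of Ets2 was found in both libraries of a treatment.

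The promoter of 2810404F17Rik was weak. The start implied by the annotated distances lies at 95808317 on the minus strand, 26.7 kb from the intronic region. A region beside it, chr16:95808616-95809018, had −log10 q values of 1.68 and 1.29 under vehicle and 1.61 in activin replicate 1. It was not called in activin replicate 2. Its densities were 2.19, 2.16 and 1.63. The one other region within 5 kb, chr16:95807348-95808033, was called in vehicle replicate 2 alone with a −log10 q of 2.34.

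1600002D24Rik spans chr16:95831123-95929077 in RefSeq, on the minus strand. A promoter-annotated peak was called only in vehicle replicate 2, at chr16:95929983-95930156, with a −log10 q of 1.25. Open chromatin lay in its introns instead. Of 23 regions inside the gene or within 5 kb of it, 5 had a peak in all 4 libraries.

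The region that was higher under activin lies in intron 3 of 3 of 1600002D24Rik, at chr16:95834634-95835390. It is 133 kb downstream of the Ets2 start, and 63.7 and 94.1 kb from the starts of 1600002D24Rik. The deposited annotation gives 2810404F17Rik as its nearest start. Its sequence was not analysed here.

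At this intronic region the called peaks held 451 and 436 reads under vehicle, against 1113 and 803 under activin. The −log10 q was 9.16 and 6.36 under vehicle and 43.7 and 27.0 under activin. The fold enrichment was 2.87 and 2.39 under vehicle and 4.45 and 3.98 under activin. On each of these measures the lower activin library was above the higher vehicle library. Enrichment at start sites, given above, was higher in both activin libraries too, and its part in these values was not tested.

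Density at the intronic region was 4.01 and 3.30 under vehicle (3.65 ± 0.497, SD, n = 2) and 7.03 and 6.11 under activin (6.57 ± 0.654, SD, n = 2), a ratio of 1.80. The called intervals were of like length, 654 and 597 bp under vehicle and 706 and 739 bp with activin, and their common part was 78.9% of the merged span. After centring, the difference was 0.57 ± 0.10 (log2, SE), which ranked 115 among the 13871 shared regions from the highest. The 5th to 95th percentile of shared regions ran from -0.54 to 0.28. In bulk ATAC-seq, more cells open at a region and more cuts per cell cannot be told apart. Under 10 other settings the difference stayed between 0.51 and 0.85, and it was 0.52 without vehicle replicate 2. Values above 0.64 came only from settings that add a constant to every region. These were all merged regions with any overlap (0.68, adding 0.11) and scaling to all high-quality reads (0.85, adding 0.27). Since the region was chosen for this difference, these values are a description of it. For orientation, limma called 0 of 13871 shared regions (0%) in either direction at an adjusted p of 0.05, with the smallest adjusted p at 0.184, and at an unadjusted p of 0.05 it counted 502 higher (3.62%) and 820 lower (5.91%).

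**Figure D3:**
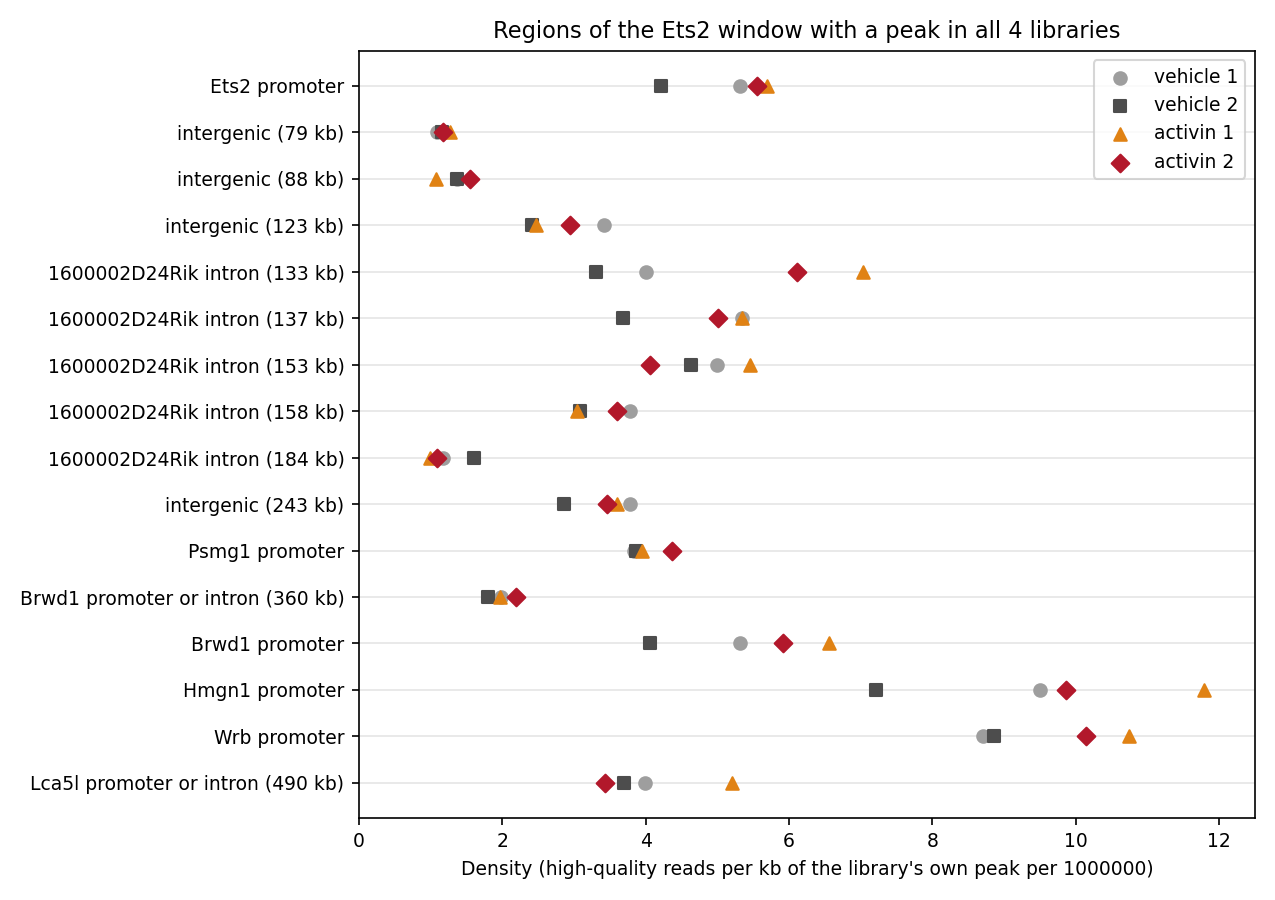
Density in each library (x axis, reads per kb of peak per 1000000 high-quality reads, each peak as called in that library) at the 16 regions with a peak in all 4 libraries (the peak with the highest −log10 q where a library had 2), ordered along the chromosome with the distance from Ets2 for regions that are not promoters. At the intron at 133 kb the activin libraries read 7.03 and 6.11 against 4.01 and 3.30, while at the Ets2 promoter the 4 values lie between 4.22 and 5.70.

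The intronic region was one of 5 that were called in all 4 libraries within 35.8 kb, and at each of the other 4 the density of the groups overlapped. The closest neighbour, 4.13 kb away at chr16:95838607-95839675 and also in intron 3 of 3, held 467 and 678 reads under vehicle against 1145 and 892 under activin, so that its reads did not overlap. Its densities were 5.35 and 3.68 under vehicle and 5.35 and 5.01 under activin. Its fold enrichment was 3.78 and 3.22 under vehicle and 3.46 and 3.35 under activin. The groups overlapped in density and in fold. Its intervals, 507 and 833 bp under vehicle and 955 and 1000 bp with activin, had a common part of 47.4%, so that it was not among the shared regions.

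The intron 1 region at chr16:95854925-95855810 lies 20.4 kb from the intronic region. Its densities were 5.00 and 4.63 under vehicle and 5.45 and 4.06 under activin, and the groups overlapped. Its reads (384 and 613 against 925 and 575) overlapped too. Fold enrichment was higher in both activin libraries, at 4.04 and 3.88 under vehicle and 4.65 and 4.08 under activin. After centring, the difference in density was -0.31 ± 0.12 (log2, SE), with an unadjusted p of 0.0331 and an adjusted p of 0.498 by limma. It was -0.13 without activin replicate 2 and -0.48 without activin replicate 1. Peak length entered this value: the intervals were 446 and 599 bp under vehicle and 757 and 795 bp with activin, and without division by length the difference turned to 0.13. The order of strength between these introns differed by treatment. This is a description only, since the intronic region was chosen by its peak strength in these same libraries. With vehicle, the −log10 q at the intronic region (9.16 and 6.36) was below that of both neighbours (15.6 to 20.3), and with activin (43.7 and 27.0) it was above both (18.5 to 33.8) within each library.

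Farther out, the intron 1 region at chr16:95860041-95860814, 25.4 kb away, had −log10 q values of 3.92 and 3.76 under vehicle and 12.7 and 7.45 under activin. Reads (156 and 237 against 529 and 270) and fold enrichment (2.40 and 2.23 against 3.01 and 2.85) were also higher in both activin libraries. Its densities overlapped between the groups, at 3.78 and 3.08 under vehicle and 3.05 and 3.60 under activin. The activin intervals were longer, 774 and 421 bp against 240 and 348 bp.

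On the Ets2 side, the intergenic region at chr16:95825043-95825969, 9.51 kb away, had −log10 q values of 4.15 and 4.61 under vehicle and 6.25 and 5.44 under activin. Its densities were 3.42 and 2.42 under vehicle and 2.46 and 2.95 under activin, and they overlapped. Fold enrichment was higher in both activin libraries (2.49 and 2.37 against 2.55 and 2.60). The activin intervals were longer, 927 and 572 bp against 350 and 565 bp. The common parts of these last regions were 31.0% and 36.2%, and neither was tested. They were the only 2 regions of the window with −log10 q of at least 5 in both activin libraries and in no vehicle library (0.994% of all regions did so), and 0 regions showed the opposite (0.0318% of all regions). The intronic region passed 5 in all 4 libraries and so is not among them.

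**Figure D4:**
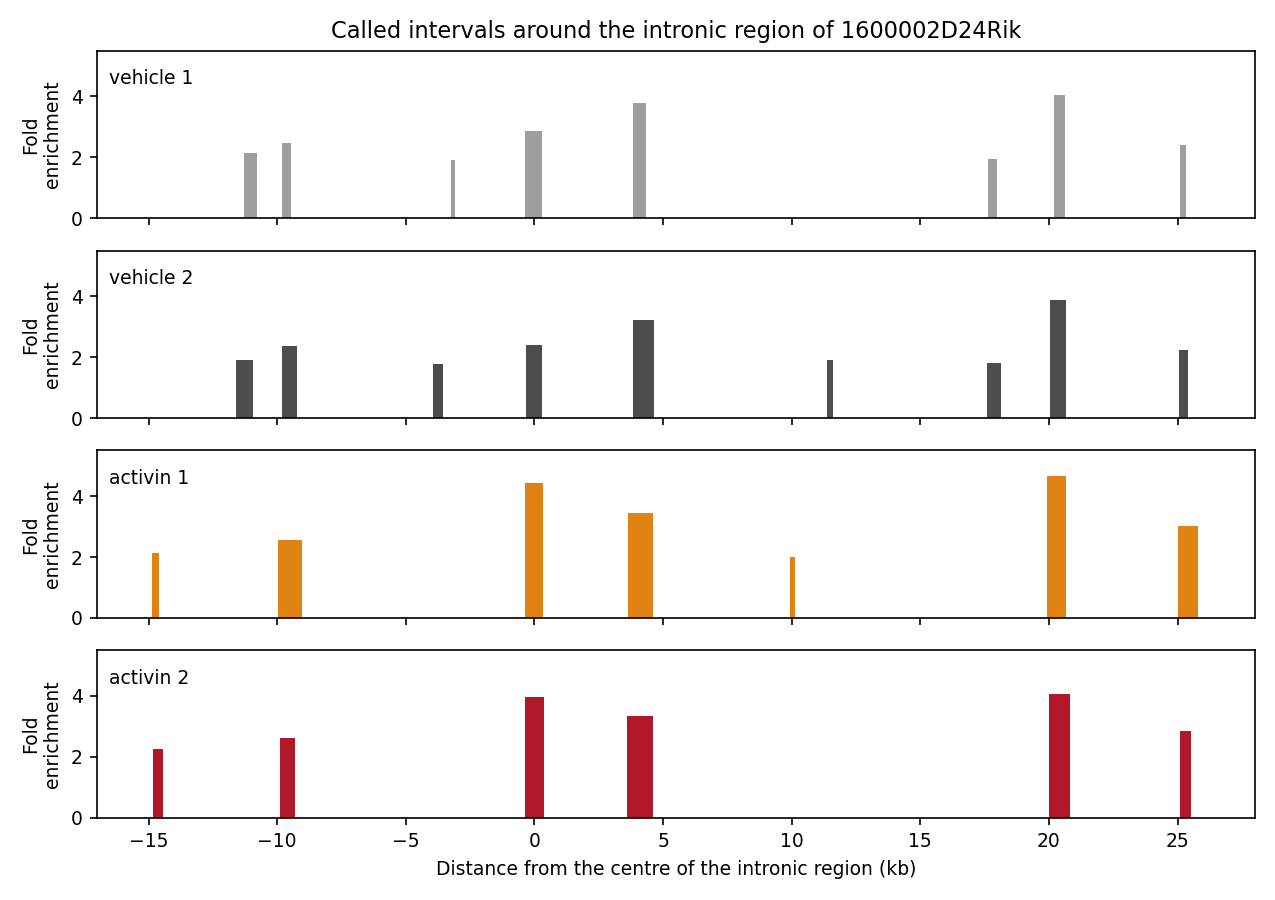
Called intervals around the intronic region in each library, with distance from its centre in kb (x axis), the authors' fold enrichment as bar height (y axis) and interval length as bar width. At 0 kb the bars reach 2.87 and 2.39 under vehicle, and 4.45 and 3.98 under activin. At 4.13 kb they stand between 3.22 and 3.78 in all libraries. At the regions called in all libraries at -9.51, 20.4 and 25.4 kb, both activin bars are above both vehicle bars.

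The other regions of 1600002D24Rik were weak. In all 4 libraries, chr16:95885388-95887338 had −log10 q values from 1.18 to 1.70 and densities between 0.931 and 1.60 over its 5 peaks. Vehicle replicate 2 had 2 peaks there, with densities of 0.931 and 1.60, so the groups overlapped. The 18 regions not found in all libraries had a highest −log10 q between 1.21 and 4.48. Of these, 9 were called in 1 library (5 of them in vehicle replicate 2), 6 in 2 and 3 in 3. Pairs made of the vehicle libraries were chr16:95852588-95853129, chr16:95896011-95896362 and chr16:95927242-95927537. The strongest of the 18, chr16:95873217-95873745, was called in vehicle replicate 2 alone.

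Regions called in both libraries of one treatment and neither of the other were few and weak. Both activin libraries alone gave 2 (1.35% of all regions did so). One, at chr16:95728674-95729230, lies 26.5 kb downstream of the Ets2 start and had −log10 q values of 2.04 and 1.53. The other, at chr16:95820152-95820577, lies 14.6 kb from the intronic region, with values of 2.93 and 2.84. Both vehicle libraries alone gave 10 (4.86% of all regions), with −log10 q between 1.16 and 2.62. Besides the 3 in 1600002D24Rik, these were chr16:95656672-95656874, chr16:95726812-95727080, chr16:95774145-95774453, chr16:95823423-95824225, chr16:95952110-95952599, chr16:96162743-96163466 and chr16:96172959-96173444. Without vehicle replicate 2, an alternative chosen after the data were seen, the numbers were 8 and 27. The vehicle count then needs a peak in 1 library only, and includes the 17 regions called in vehicle replicate 1 alone, so both numbers had to rise or stay. Pairs of 1 vehicle and 1 activin library gave 4, 5, 0 and 6 regions.

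The promoters of the neighbouring genes gave the scale for these values. Hmgn1, which encodes a nucleosome-binding protein, and Wrb (Get1 in RefSeq), which encodes a receptor for tail-anchored proteins at the endoplasmic reticulum, had the strongest peaks of the window. At the Hmgn1 promoter, chr16:96127286-96128406, density was 9.51 and 7.22 under vehicle and 11.8 and 9.87 under activin. At the Wrb promoter, chr16:96145104-96145933, it was 8.70 and 8.87 under vehicle and 10.7 and 10.1 under activin. After centring, the limma changes were 0.11 ± 0.12 (adjusted p = 0.794) and -0.025 ± 0.11 (adjusted p = 0.961), the second turning to 0.25 when scaled to all high-quality reads.

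Brwd1, which encodes a bromodomain protein with WD repeats, had a promoter region at chr16:96081355-96083764 with densities of 5.32 and 4.07 under vehicle and 6.56 and 5.91 under activin, a change of 0.15 ± 0.10 (adjusted p = 0.662, limma) that was 0.041 without vehicle replicate 2 and 0.25 without vehicle replicate 1. Psmg1, which encodes a chaperone of proteasome assembly, had densities of 3.84 and 3.86 under vehicle and 3.95 and 4.37 under activin at chr16:95990307-95991069, a change of -0.17 ± 0.11 (adjusted p = 0.658, limma) that turned to 0.11 when scaled to all high-quality reads and ran from -0.28 to -0.056 with 1 library left out. At Lca5l, a relative of the ciliary gene Lca5, the region chr16:96191623-96192583 had densities of 3.99 and 3.70 under vehicle and 5.20 and 3.43 under activin, a change of -0.14 ± 0.15 (adjusted p = 0.798, limma) that turned to 0.14 under that scaling. None of these 5 promoters passed the test.

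Under vehicle the mean density of the intronic region was 3.65, beside 3.85 at both the Psmg1 and the Lca5l promoter. With activin its density lay above that of the Ets2 promoter in both libraries, at 7.03 against 5.70 and 6.11 against 5.55. These densities are levels per length within each library, and the Ets2 intervals were longer (1329 and 1199 bp against 706 and 739 bp). Fold enrichment ran the other way, at 4.45 against 4.74 and 3.98 against 4.85. The Ets2 peaks also held more reads, 1698 and 1184 against 1113 and 803. The intronic region was chosen by its density and peak strength in these libraries, so this order is a description only.

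Of the 7 shared regions of the window other than the intronic one, 0 passed an adjusted p of 0.05 and 1 had an unadjusted p under 0.05, the intron 1 region given above. Their median change was -0.025, beside -0.0049 for all shared regions, with 2 positive and 5 negative. Counting the intronic region, 2 of 8 were higher in both activin libraries after centring (20.9% of all shared regions) and 1 of 8 was lower (20.5%). The 2 were the Brwd1 promoter and the intronic region itself, which was chosen for its rise. Before centring, density was higher in both activin libraries in 6 of 8 (62.4% of all shared regions). Fold enrichment was higher in 5 (61%) and −log10 q in 5 (71.7%). The intronic region is in each of these counts. Neither density nor fold was lower in any (0 of 8, against 3.56% and 3.23% of all shared regions). Called length was greater in both activin libraries in 4 of 8 (38.1% of all shared regions) and shorter in 0 (7.03%).

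**Figure D5:**
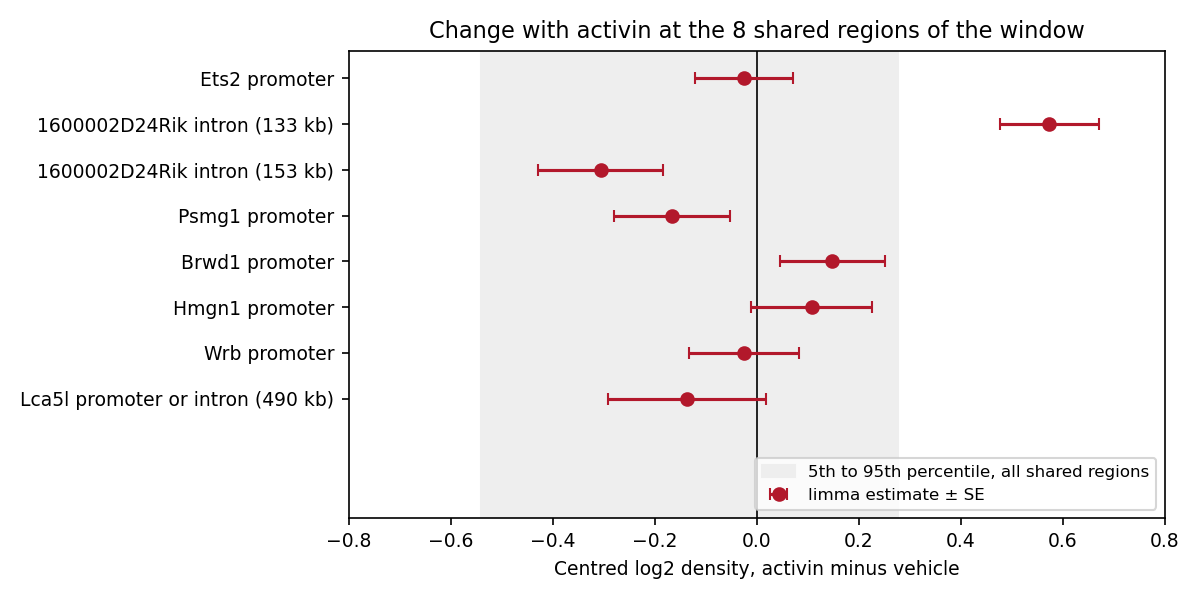
Centred log2 density, activin minus vehicle, at the 8 shared regions of the window (points, limma estimate with SE as bars), with the 5th to 95th percentile of all shared regions (-0.54 to 0.28) shaded. The intronic region at 0.57 lies outside the shaded range and the 7 others, between -0.31 and 0.15, lie inside. The intronic region was chosen for its rise in these libraries, so its place outside the range is a description and not a test.

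The remaining regions found in all 4 libraries were weak. The intergenic regions between Ets2 and 2810404F17Rik, chr16:95780441-95781596 and chr16:95789259-95791524, had densities between 1.08 and 1.83 and −log10 q values between 1.22 and 2.52. The intergenic region chr16:95945526-95945750, between 1600002D24Rik and Psmg1, had −log10 q values of 3.19 and 2.12 under vehicle and 5.24 and 2.13 under activin. The Brwd1 region at chr16:96061985-96062469, annotated as intron 8 or as a promoter, had densities between 1.80 and 2.19. Groups overlapped in −log10 q at all 4, but not on every measure. At chr16:95780441-95781596 density was 1.09 and 1.16 under vehicle and 1.27 and 1.18 under activin. Fold enrichment was also higher in both activin libraries there. Its intervals were shorter under activin, 511 and 534 bp against 1156 and 1117 bp. By the strongest peak per library, activin intervals were also shorter at chr16:95789259-95791524 and chr16:96061985-96062469. Outside the 16, a −log10 q of 5 was reached at chr16:96114061-96114242 (5.51, vehicle replicate 2 alone, at the annotated end of Gm15341) and at chr16:96151516-96151874 in an intron of Wrb (3.30 in vehicle replicate 2, 4.38 and 5.64 under activin, not called in vehicle replicate 1).

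Ets2 was also set beside its family. Of 25 other ETS genes, 23 were named in the annotated lists, and 8 had a promoter-annotated peak in all 4 libraries (Ets1, Fev, Elf3, Elk1, Elk4, Etv4, Etv5 and Etv6), against 18.8% of all genes named. By another measure, a peak whose centre lay at most 1 kb from the annotated start, in all 4 libraries, the count was 6, against 23% of all genes. The Ets2 peak does not meet that measure because of the start to which its distance was given. A promoter-annotated peak was found in some libraries for 9 and in 0 libraries for 8.

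The strongest ETS promoter on the list was that of Etv5, a member of the PEA3 subfamily, with −log10 q values of 41.6 and 44.1 under vehicle and 57.7 and 50.4 under activin. Each was above the Ets2 promoter in the same library. Etv5 density was 8.40 and 7.49 under vehicle and 8.24 and 9.07 under activin. Ets1, the closest relative of Ets2, had a weaker peak, with −log10 q values of 8.75 and 7.56 under vehicle and 16.4 and 11.7 under activin.

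For 7 ETS genes a shared region lay at the promoter by a wider definition, annotated as promoter or centred at most 1 kb from the annotated start in at least 1 library. It takes in Erf, with no promoter-annotated peak, and Ehf, with one in vehicle replicate 2 alone. None passed the test (smallest adjusted p 0.636, limma). The changes were 0.090 ± 0.098 for Ets1, 0.067 ± 0.093 for Elf3, 0.20 ± 0.12 for Ehf, 0.16 ± 0.14 for Etv6, -0.055 ± 0.097 for Elk4, -0.15 ± 0.11 for Etv5 and -0.060 ± 0.092 for Erf (log2, SE). Their median was 0.067, beside -0.0049 for all shared regions.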

How the data were processed

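Groups and replicate numbers came from the titles. Nothing states that replicates are separate cultures, so p-values measure only the spread between these 4 libraries, which may be technical. Bowtie2, MACS2 and HOMER, with builds GRCm38 and mm10, are named in the submitters' processing notes, without their settings. The authors deposited, for each library alone, a list of broad peaks with a whole-number score, a fold enrichment, and the −log10 of the p-value and q-value. These are the authors' values and were used to describe and rank peaks. The annotation of the peaks is from HOMER, per the file headers. Reads overlapping each peak come from the deposited ataqv report (version 1.3.1, per the file headers), which lists high-quality autosomal alignments.

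Peaks overlapping by at least 1 bp were merged across libraries. For shared regions, log2 of (reads + 1) per kb, centred on each library's median, was fitted with limma 3.58.1 (trend, no block) and adjusted by Benjamini-Hochberg over all 13871. A count model was not used, since intervals differ between libraries. The same limma code was run on simulated data, with changes larger than that of the intronic region. The outcome of that run is not given here and is not used. Fold changes on this scale understate changes of regions with few reads. The change without division by length, other scalings, an overlap of 80%, other thresholds and left-out libraries were tried.

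Named by rule were the 3 genes, every region found in all 4 libraries and the genes annotated to it, regions with −log10 q of at least 5, regions in both libraries of 1 treatment only, and regions within 5 kb of a member. The 5 most alike regions were also named by rule. The members and lists were chosen with earlier results of these data known. Of the members, 2 matched the RefSeq tables (GRCm38.p6). A list of signalling genes upstream of ETS factors is not reported here.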

Additional observations from a re-analysis of the deposited data

How the results depend on the processing

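The number of shared regions called was 0, and it was 1 with 10 reads added in place of 1, 39 (5 higher, 34 lower) without division by length, 605 (553 higher, 52 lower) when scaled to all high-quality reads, and 0 to 9 with 1 library left out (1 without activin replicate 1, 9 without activin replicate 2). The difference between replicates 1 and 2 under vehicle was hardly correlated with that under activin over the shared regions (r = -0.0252). Whether equal replicate numbers mark pairs is not stated in the labels. With a replicate block 4 regions were called, all lower, and the intronic change was 0.57. The intronic change was 0.68 over all merged regions with any overlap, 0.85 scaled to all high-quality reads, and 0.51 to 0.64 with 1 library left out. It gave no value at an overlap of 80%, since its common part is 78.9%. None of the other window regions was called at an adjusted p of 0.05 under any setting run (0 to 0 with 1 library left out, smallest adjusted p 0.0861).

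Of 73 alternative values for those 7 regions, 60 kept their direction. Of the 13 others, 6 came from any overlap, which adds 0.11 to every region, or from scaling to all reads, which adds 0.27, and these say nothing of single regions; 7 came from other settings. They were the Ets2 promoter at 0.081 with any overlap, 0.055 without length and 0.25 scaled to all reads (-0.10 to 0.054 with 1 library left out), Wrb at 0.081 and 0.25 (-0.13 to 0.076), Psmg1 at 0.047 without length and 0.11 scaled to all reads, Lca5l at 0.14 scaled to all reads (-0.40 to 0.12) and the intron 1 region at 0.13 without length. The Hmgn1 promoter ran from -0.0035 to 0.22 with 1 library left out. The libraries that turned a direction were vehicle replicate 1 for Ets2, vehicle replicate 2 for Wrb and Hmgn1, and activin replicate 2 for Lca5l. The cause was not tested.

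The difference in peak number turned to 2.5 at −log10 q of at least 5, and ran from -60 to -13 with 1 library left out. The count of ETS promoters, 6, was 3 at that threshold and 6 to 6 with 1 library left out. With 2 libraries a group and per-library peak calling, a weak region absent from a list may lie under that library's threshold.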

Other observations

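The 5 shared regions whose centred log2 densities over the 4 libraries lay nearest to those of the intronic region of 1600002D24Rik were mostly promoters. In order of Euclidean distance they were the promoter of Fam193a (0.188), Cep97 (0.231), Polr3k (0.232) and Slc31a1 (0.235), and an intergenic region nearest to Rbfa (0.241). Their changes were 0.70, 0.40, 0.48, 0.37 and 0.53. Likeness here is over 4 libraries only. It was measured on the same values as the change, so changes of like sign and size follow from the choice. Of all shared regions, 46.4% were promoters (median change 0.027), 21.9% intronic (-0.055) and 19.9% intergenic (-0.066).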
